A study of Mus musculus with 14 samples.

Results

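The genes described here are 10 of the chemokine system by which monocytes are drawn into tissue. They were chosen by name, with earlier results of these data known, and all 10 were found by symbol among the 53801 genes measured. The set holds the 4 monocyte chemoattractant protein (MCP) ligands of the mouse, Ccl2, Ccl7, Ccl8 and Ccl12, the 2 related ligands Ccl6 and Ccl9, the receptors Ccr1, Ccr2 and Cx3cr1, and Cx3cl1 (fractalkine). The levels of all 10 were high enough to enter the test across genes. They were measured by bulk RNA-seq in tumors of CT26, a mouse colon carcinoma cell line.

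Female Balb/c mice, the strain of origin of CT26, aged 6 to 8 weeks received 250000 barcoded CT26 cells per flank, so every group carried the same barcoded pool of cells. From day 7, 5 doses of 200 µg of control IgG or of an anti-PD-1 antibody were given, one every 3 days, and harvest followed 3 days after the final one. Control IgG comprised 5 tumors of 4 mice (14L, 14R, 16R, 17R and 20R), the anti-PD-1 responders 5 tumors of 4 mice (24L, 26R, 30L, 30R and 35L), and the anti-PD-1 non-responders 4 tumors of 3 mice (29L, 32R, 33L and 33R). Responders and non-responders had the same treatment and were divided by the size of the tumor at its end, relative to the control cohort, so a difference between them is also a difference between small and large tumors. A tumor's letter marks its flank, and mice 14, 30 and 33 gave both flank tumors.

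Chemokines are small secreted proteins that bind receptors with 7 membrane-spanning helices and direct the movement of leukocytes along a gradient. Ccr2 is the receptor by which inflammatory (Ly6C high) monocytes leave the bone marrow and enter inflamed tissue and tumors, and the MCP ligands act on it, with Ccl8 in the mouse also known as a ligand of Ccr8. Cx3cr1 is the defining receptor of patrolling monocytes and of many tissue macrophages, and its ligand Cx3cl1 is made as a membrane protein by endothelial and epithelial cells and released by the proteases Adam10 and Adam17.

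Depth was similar between groups. The expected counts of a tumor, that is, the fragments that RSEM assigned to genes, summed to between 33237744 and 48481461, and the members had between 50 and 21786 counts per tumor. The mean fragment length, as estimated from effective gene lengths, was 268.7 to 277.7 in control IgG tumors and 269.5 to 277.0 in responders, while that of non-responders was 277.5 to 287.8. Responders and non-responders did not overlap in it, and its part in the differences between these groups, which bears on short genes such as these ligands, was not tested apart from the length adjustments given with the results. Of the markers that define the colon epithelium from which CT26 was derived, Krt20 was present while Cdx1 was under 3 counts in every tumor and Vil1 and Muc2 were too low to be tested.

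The MCP genes lie in a row on chromosome 11 (mm10), all transcribed from the plus strand. Ccl2 (ENSMUSG00000035385) is at chr11:82035571-82037453, Ccl7 (ENSMUSG00000035373) at chr11:82045712-82047525, Ccl12 (ENSMUSG00000035352) at chr11:82101845-82103400 and Ccl8 (ENSMUSG00000009185) at chr11:82115185-82116799. Ccl11, an eosinophil attractant that is not a member, lies between Ccl7 and Ccl12. The end of Ccl12 and the start of Ccl8 are 11.8 kb apart, and these adjacent genes moved in opposite directions in the responders. The 250 bases before their starts, from the RefSeq promoter table of GRCm38.p6 and read on the plus strand, are shown for that reason, with the letters TATAAA in capitals.
Ccl12, chr11:82101595-82101844: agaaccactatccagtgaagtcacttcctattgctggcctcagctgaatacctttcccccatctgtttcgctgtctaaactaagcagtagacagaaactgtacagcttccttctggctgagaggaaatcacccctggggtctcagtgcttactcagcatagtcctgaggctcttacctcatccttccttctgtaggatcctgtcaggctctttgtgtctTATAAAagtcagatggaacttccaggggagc
Ccl8, chr11:82114935-82115184: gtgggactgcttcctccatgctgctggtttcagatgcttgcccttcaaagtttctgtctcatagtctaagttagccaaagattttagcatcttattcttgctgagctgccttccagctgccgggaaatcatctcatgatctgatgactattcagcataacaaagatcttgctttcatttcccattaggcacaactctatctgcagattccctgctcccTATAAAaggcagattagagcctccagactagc
The TATAAA began 31 bases before the start of Ccl12 and 32 bases before that of Ccl8, so the adjacent genes share this element and its place. On the given strand, 8.32% of 32851 RefSeq promoters (250 bases before to 50 after the start) held it. No match to the other motifs searched on both strands, GGGNNNTCC (NF-kB), TGANTCA (AP-1), TTCNNNGAA (the interferon-gamma activated site) and GAGGAAGT (PU.1), stood in either of these windows, and a match or its absence describes these letters only. Promoters were matched for 8 of the 10 members.

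Against control IgG, 5 of the 10 members passed the test in responders. Ccl8, Ccl6 and Cx3cl1 were higher, and Ccl12 and Cx3cr1 were lower. Over all 16287 genes tested in this comparison, 13.2% passed, with 7.88% higher and 5.3% lower. Because the members were chosen with earlier results of these data known, these shares are a background and not a test of the set. For 3 of the 10 members the 2 groups did not overlap in CPM, against 15.1% of all genes. The test was edgeR's quasi-likelihood test with Benjamini-Hochberg adjustment over all genes, called at an adjusted p under 0.05. Levels are given as CPM, counts scaled by library size and TMM factor to the usual common total, and fold changes as log2 with the standard error (SE).

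**Figure D1:**
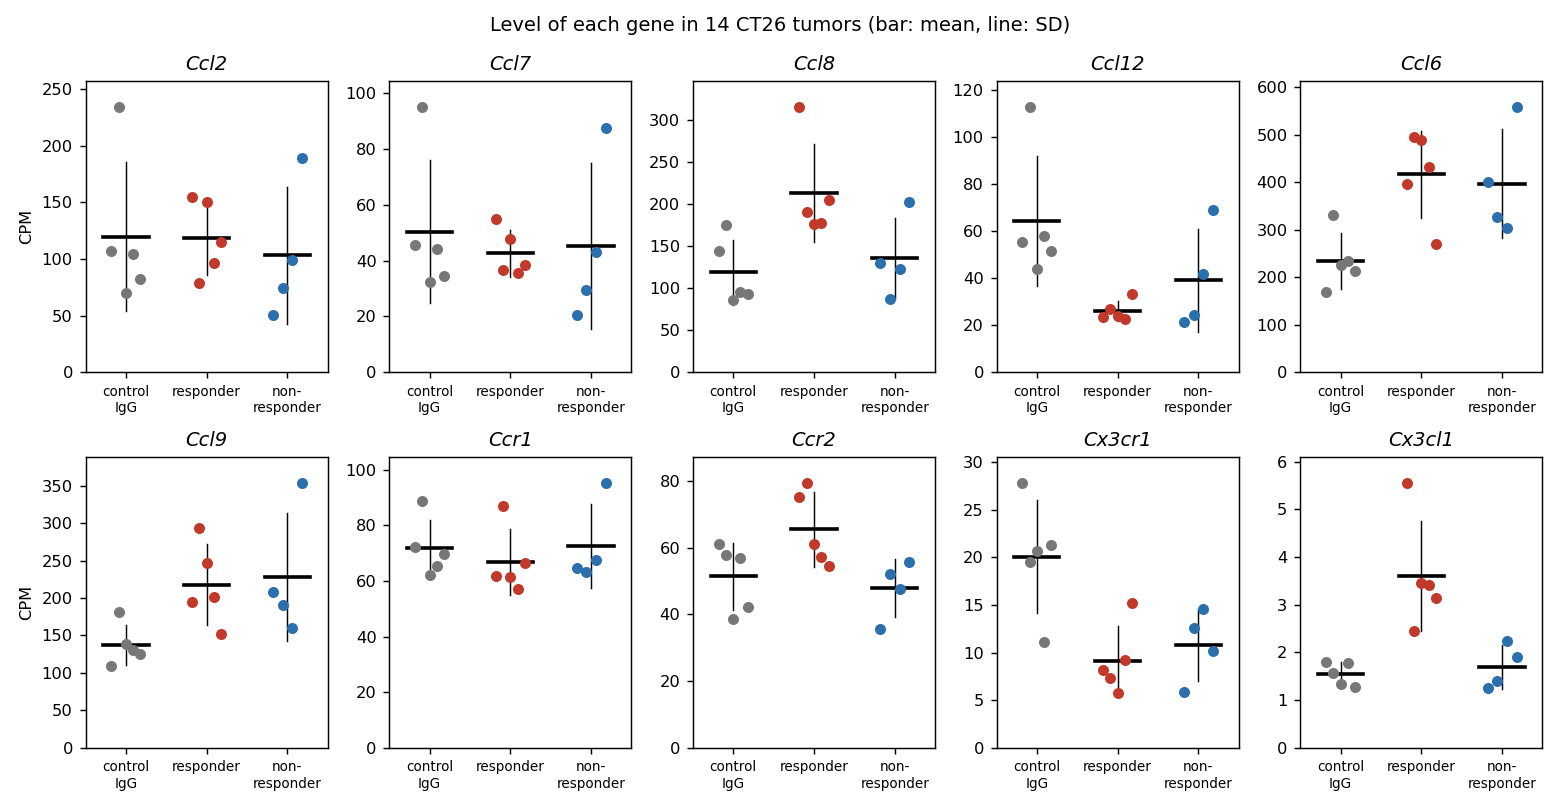
CPM of the 10 genes in each of the 14 tumors (vertical axes, linear from 0, one panel per gene), by group along the horizontal axis, with the group mean as a bar and the SD as a line. Ccl8 and Cx3cl1 in responders lie above every control IgG tumor and Ccl12 in responders lies below every control IgG tumor, and the highest points of Ccl2, Ccl7 and Ccl12 are control IgG tumor 14R.

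Ccl8 (MCP-2) was at 144, 175, 85.5, 95.9 and 93.3 CPM in control IgG tumors 14L, 14R, 16R, 17R and 20R. In responders 24L, 26R, 30L, 30R and 35L it was at 315, 191, 177, 178 and 204.5 CPM, and in non-responders 29L, 32R, 33L and 33R at 130.5, 86.7, 122 and 202 CPM. Every responder was above every control IgG tumor, the lowest responder (177 CPM) by little over tumor 14R (175 CPM), while the non-responders overlapped both groups. Ccl8 was 1.79-fold higher in responders than in control IgG tumors (log2 fold change 0.84, SE 0.25, adjusted p = 0.0381, higher in 5 of 5 responders). On leaving out single tumors, this call was the least steady of the 5. It was lost without control IgG tumor 16R (adjusted p = 0.0872), 17R (0.0830) or 20R (0.103) or responder 24L (0.116), 30R (0.0515) or 35L (0.0576). Under the 11 alternatives it held each time, with adjusted p between 0.00714 and 0.0402.

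Ccl12 (MCP-5), a ligand of Ccr2 found in the mouse, was at 55.2, 112, 43.8, 57.6 and 51.5 CPM in control IgG tumors 14L, 14R, 16R, 17R and 20R. In responders it was at 23.5, 26.9, 23.9, 22.5 and 33.1 CPM, and in non-responders at 21.3, 24.2, 41.5 and 68.8 CPM, in the order of tumors above. The responders lay close together and under every control IgG tumor, while the non-responders spread from the level of the responders (29L and 32R) past 33L, just below the lowest control, to 33R, inside the range of the controls. Ccl12 was 2.47-fold lower in responders than in control IgG tumors (log2 fold change -1.30, SE 0.31, adjusted p = 0.0139). Its call in this comparison held under all 11 alternatives and on leaving out any 1 of the 14 tumors, with adjusted p between 0.000296 and 0.0412.

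Ccl2 (MCP-1), the main ligand of Ccr2, showed no such difference. It was at 107, 234, 70.1, 104.7 and 82.1 CPM in control IgG tumors, at 155, 78.3, 150.1, 96.1 and 115 CPM in responders, and at 50.4, 74.0, 99.1 and 189.5 CPM in non-responders. The 3 groups overlapped throughout, and a single tumor, 14R among the controls and 33R among the non-responders, was highest in its group. The log2 fold change of responders over control IgG was -0.01 (SE 0.36, 95% interval -0.79 to 0.77, adjusted p = 0.992). Its neighbor Ccl7 (MCP-3) ranged from 32.4 to 94.9 CPM in control IgG tumors, from 35.4 to 55.0 in responders and from 20.3 to 87.4 in non-responders. Its log2 fold change of responders over control IgG was -0.24 (SE 0.36, 95% interval -1.0 to 0.52, adjusted p = 0.711). Without tumor 14R the values were 0.39 for Ccl2 and 0.13 for Ccl7, neither of them called.

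Because the 4 genes share a receptor family and a locus, their levels were also set against each other per length, as TPM (transcript abundance per length). In control IgG tumors Ccl8 made up 48.0% ± 5.2 (SD, n = 5) of the summed TPM of the 4, Ccl12 23.1% ± 2.3, Ccl2 20.2% ± 2.8 and Ccl7 8.81% ± 0.95. In responders Ccl8 made up 68.8% ± 4.5 (n = 5), Ccl2 17.0% ± 3.7, Ccl12 7.94% ± 1.9 and Ccl7 6.29% ± 0.72. The share of Ccl12 was 19.1% to 24.4% in control IgG tumors, 10.7% to 16.9% in non-responders and 4.99% to 9.95% in responders, so the 3 groups stood apart in this share, and in responders it was lowest in 24L. The ratio of Ccl8 to Ccl12 in TPM was 2.87, 1.72, 2.15, 1.83 and 1.99 in the control IgG tumors, 14.7, 7.84, 8.12, 8.70 and 6.81 in the responders, and 6.76, 3.95, 3.25 and 3.26 in the non-responders. No group overlapped another in this ratio, although responder 35L and non-responder 29L were nearly equal. The ratio of Ccl7 to Ccl2 varied less, from 0.326 to 0.481 over all tumors, with group means of 0.439 ± 0.022 in control IgG tumors, 0.379 ± 0.061 in responders and 0.436 ± 0.031 in non-responders. All responders but 26R were below every tumor of the other groups in it. The summed TPM of the 4 ligands was 1203 ± 424 in control IgG tumors, 1637 ± 372 in responders and 1046 ± 319 in non-responders. These shares and ratios are descriptions and were not tested. Ccl8 and Ccl12 each stood apart between responders and control IgG tumors, in opposite directions, so the separation of their ratio there follows from theirs. Between responders and non-responders neither gene was called (adjusted p = 0.126 and 0.259). How many other pairs of genes stand apart in this way was not counted.

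**Figure D2:**
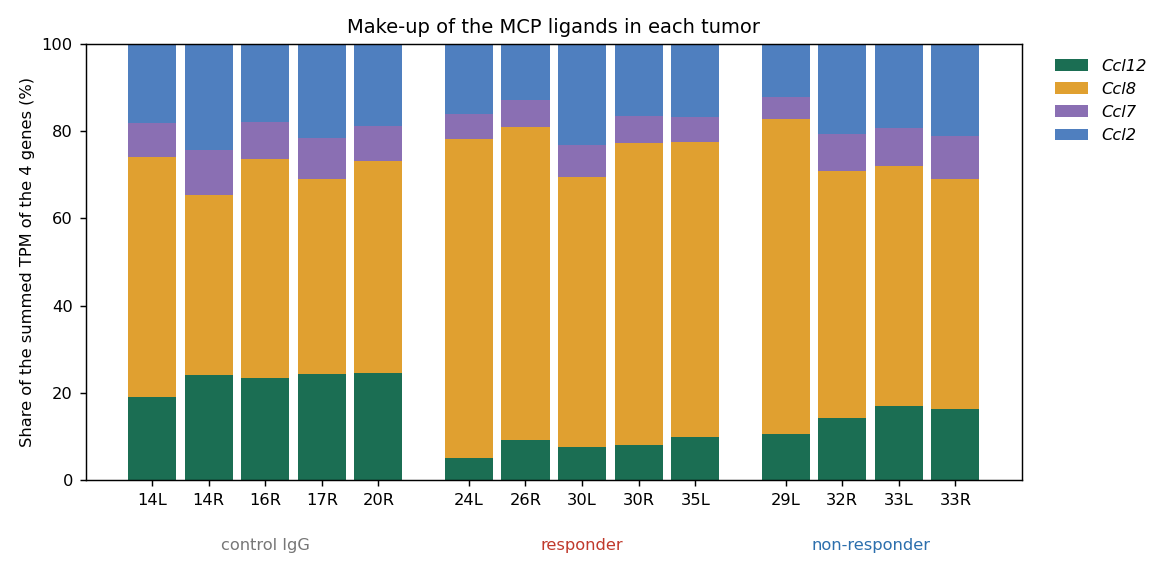
Stacked bars of the share (%) of Ccl12, Ccl8, Ccl7 and Ccl2 in their summed TPM in each of the 14 tumors. The Ccl12 share is 19.1% to 24.4% in control IgG tumors, 4.99% to 9.95% in the responders and 10.7% to 16.9% in non-responders.

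Ccl6 and Ccl9, ligands of Ccr1 in the mouse that myeloid cells express, lie next to each other on chromosome 11, on the minus strand. Ccl9 (ENSMUSG00000019122) is at chr11:83572919-83578636 and Ccl6 (ENSMUSG00000018927) at chr11:83587882-83593087. Ccl6 was at 169, 331, 226, 233 and 213 CPM in control IgG tumors, at 397, 496, 489, 433 and 269 CPM in responders, and at 400.3, 328, 303 and 558 CPM in non-responders. All responders but 35L were above the highest control, 14R, so these groups overlapped by 1 tumor on each side. Ccl6 was 1.78-fold higher in responders than in control IgG tumors (log2 fold change 0.83, SE 0.21, adjusted p = 0.0183), and the call was lost without control IgG tumor 20R (adjusted p = 0.0525). Ccl9 ranged from 109.5 to 182 CPM in control IgG tumors, from 152 to 294 in responders and from 160.3 to 353 in non-responders. Its log2 fold change in responders was 0.66 (SE 0.22, adjusted p = 0.0557), just outside the threshold, and it was called in 8 of the 11 alternatives, with adjusted p between 0.00902 and 0.0647 over them. Leaving out control IgG tumor 14R (adjusted p = 0.0353), responder 35L (0.0353) or non-responder 33L (0.0461) or 33R (0.0153) also brought it past the threshold.

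Among the receptors, only Cx3cr1 passed the test in this comparison. Cx3cr1 (ENSMUSG00000052336, chr9:119901616-120069879, minus strand) was at 27.8, 19.5, 20.7, 11.1 and 21.3 CPM in control IgG tumors, at 8.16, 7.29, 5.71, 9.20 and 15.2 CPM in responders, and at 5.80, 12.6, 14.6 and 10.2 CPM in non-responders. All responders but 35L lay below every control, and control 17R was the one control inside the range of the treated tumors. Cx3cr1 was 2.20-fold lower in responders than in control IgG tumors (log2 fold change -1.14, SE 0.29, adjusted p = 0.0208). The call was lost without control IgG tumor 20R (adjusted p = 0.0510) or responder 24L (0.0581).

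Ccr2 (ENSMUSG00000049103, chr9:124101950-124113557, plus strand) was at 61.1, 57.9, 38.7, 56.9 and 42.1 CPM in control IgG tumors, at 75.3, 79.3, 61.0, 57.2 and 54.4 CPM in responders, and at 35.6, 52.1, 47.7 and 55.6 CPM in non-responders. The groups overlapped, with the 2 highest values in responders 24L and 26R. Its log2 fold change of responders over control IgG was 0.35 (SE 0.16, 95% interval 0.02 to 0.68, adjusted p = 0.160), and it passed the test only on log2 TPM (adjusted p = 0.0320 with a pseudocount of 1 and 0.0335 with 0.1). Ccr1 (ENSMUSG00000025804, chr9:123962124-123968692, minus strand), the receptor of Ccl6 and Ccl9 on monocytes and neutrophils, ranged from 62.2 to 88.9 CPM in control IgG tumors, from 57.2 to 87.2 in responders and from 63.3 to 95.2 in non-responders. Its log2 fold change was -0.10 (SE 0.14, 95% interval -0.41 to 0.20, adjusted p = 0.679). The ratio of Ccr2 to Cx3cr1 in TPM was 2.63 ± 1.23 (SD, n = 5) in control IgG tumors, 7.92 ± 3.16 (n = 5) in responders and 4.48 ± 1.23 (n = 4) in non-responders, with a range of 1.76 to 4.71 in controls and 3.40 to 10.8 in responders. In bulk tumors, fewer cells of a type and less RNA per cell cannot be told apart.

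Cx3cl1 (ENSMUSG00000031778, chr8:94772009-94782427, plus strand) was the scarcest member and had the smallest adjusted p of the 10. It was at 1.79, 1.56, 1.34, 1.78 and 1.28 CPM in control IgG tumors, at 5.55, 2.45, 3.46, 3.42 and 3.14 CPM in responders, and at 1.25, 1.39, 2.24 and 1.90 CPM in non-responders. In CPM every responder was above every tumor of both other groups, with 24L highest. In TPM the responders (0.99 to 2.35) still lay above the non-responders (0.47 to 0.88) but overlapped the control IgG tumors (0.48 to 1.39), since control 17R was at 1.39 TPM and responder 26R at 0.99. By counts, Cx3cl1 was 2.32-fold higher in responders than in control IgG tumors (log2 fold change 1.22, SE 0.23, adjusted p = 0.00389) while its receptor Cx3cr1 was lower. The call depended on the scale. On log2 TPM the log2 fold change was 0.47 with a pseudocount of 1 (adjusted p = 0.0553). With 0.1 it was 0.85 (adjusted p = 0.0653). Control IgG tumors 14R and 17R had similar counts of Cx3cl1 (73 and 74) but 0.55 and 1.39 TPM, and the reason was not tested. Of the sheddases, Adam17 rose in responders (log2 fold change 0.30, SE 0.08, adjusted p = 0.0270), and Adam10 had a log2 fold change of 0.06 (SE 0.09, adjusted p = 0.702).

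Genes called in opposite directions side by side were found in the MCP row and not in the other 3 rows of neighbors examined, as the plot by position shows. Between Ccl7 and Ccl12, Ccl11 had a log2 fold change of 0.51 (SE 0.35, adjusted p = 0.373). Cx3cl1 lies between Ccl22 and Ccl17, dendritic cell ligands of Ccr4, which had log2 fold changes of 0.70 (SE 0.25, adjusted p = 0.0802) and 1.19 (SE 0.28, adjusted p = 0.0146) in responders over control IgG. Ccl5, a T cell and NK cell ligand on the far side of Ccl9, rose (log2 fold change 1.92, SE 0.24, adjusted p = 0.000604). Of the 75-base windows of Ccr2 transcripts, 1.16% also occur in other genes, so RSEM may have divided a small part of its fragments.

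**Figure D3:**
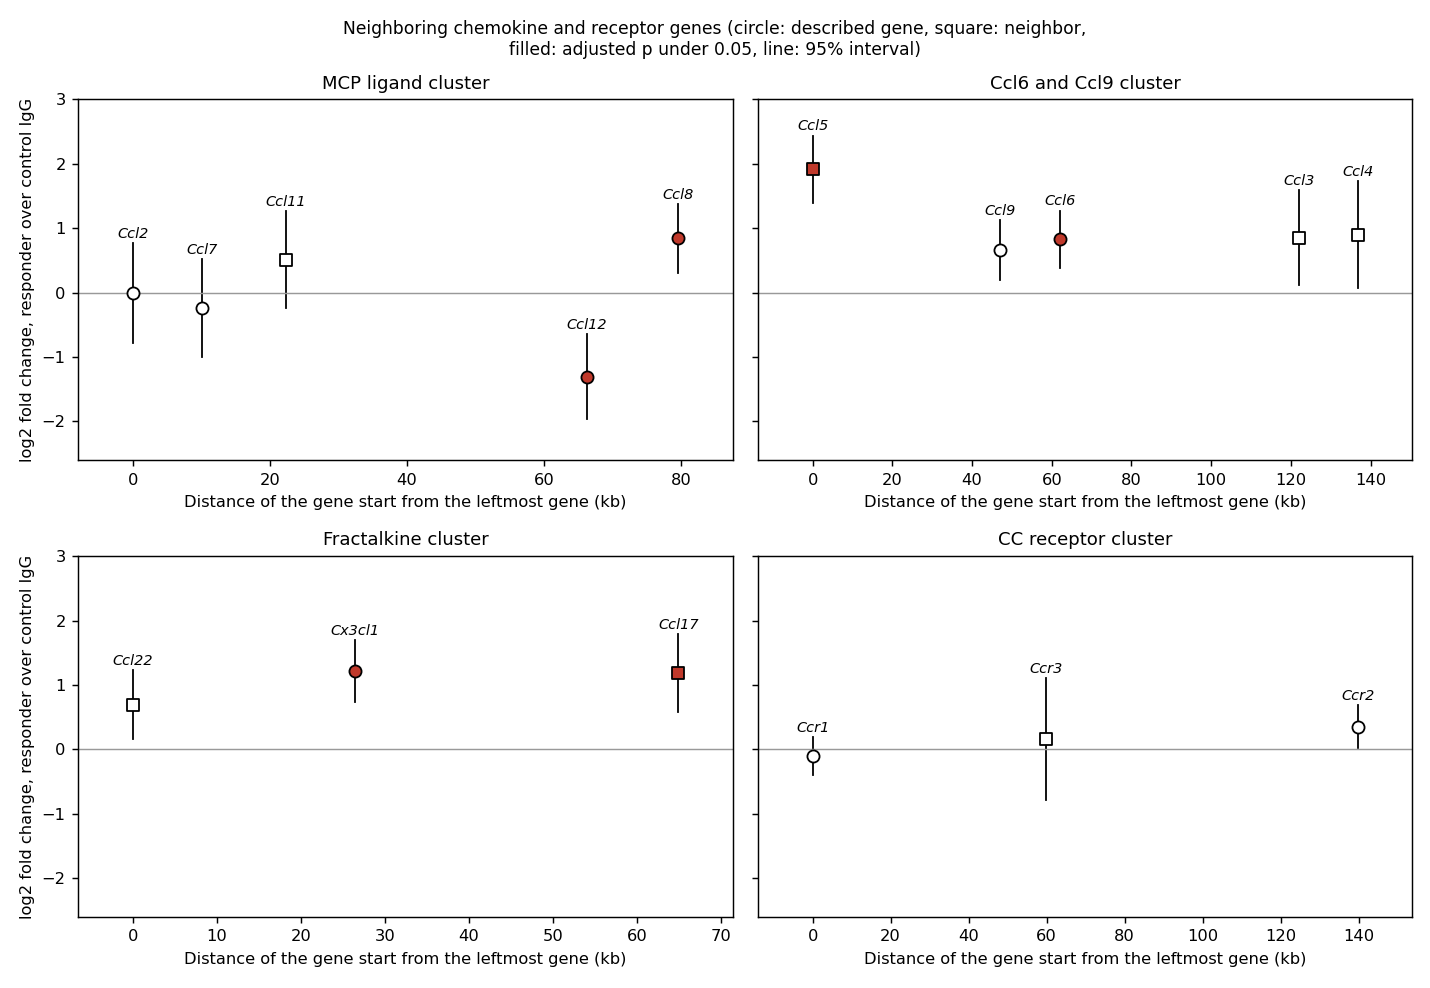
log2 fold change of responders over control IgG (vertical axis, with the 95% interval as a line) against the distance of each gene's start from the leftmost gene of its row (horizontal axis, kb), for 4 groups of neighboring genes, with members as circles, neighbors as squares, and filled symbols for an adjusted p under 0.05. Ccl12 (-1.30) and Ccl8 (0.84), 11.8 kb apart, lie on opposite sides of 0.

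Between responders and non-responders, 1 of the 10 members passed the test, against 9.9% of all genes tested. This comparison asks what distinguishes tumors that ended small from tumors that ended large under the same antibody. It shares the responders with the comparison with control IgG, and the comparison of non-responders with control IgG shares tumors with both, so the 3 are not independent. Cx3cl1 was 2.13-fold higher in responders than in non-responders (log2 fold change 1.09, SE 0.24, adjusted p = 0.0173, higher in 5 of 5), and was the one member whose groups did not overlap in CPM, against 12.8% of all genes. In TPM, Ccl8 (responders from 906 TPM, non-responders up to 766 TPM) and Ccr2 (from 21.6 and up to 17.9 TPM) did not overlap either. The share of all genes without overlap in TPM was not counted. On log2 TPM the median of all genes shifted toward responders, by 0.169 with a pseudocount of 1 and 0.235 with 0.1. The call of Cx3cl1 was lost without non-responder 32R (adjusted p = 0.0548) and with 1 tumor per mouse (0.0526). Ccl22 (log2 fold change 1.18, SE 0.27, adjusted p = 0.0190) and Ccl17 (1.69, SE 0.32, adjusted p = 0.0102), on either side of it, rose as well.

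Ccl8 had a log2 fold change of 0.65 in responders over non-responders (SE 0.27, 95% interval 0.09 to 1.22, adjusted p = 0.126), and 33R was the non-responder inside the range of the responders. It passed the test under the gene length offset (log2 fold change 0.96, adjusted p = 0.0222), on log2 TPM (0.0247 with a pseudocount of 1, 0.0254 with 0.1) and with 1 tumor per mouse (0.0442). The last setting drops the right tumor of each mouse that gave both, 33R among them, so the effects of shared mice and of 33R cannot be told apart there. Ccr2 had a log2 fold change of 0.46 (SE 0.17, 95% interval 0.10 to 0.81, adjusted p = 0.0944) and passed on log2 TPM alone (adjusted p = 0.0114 and 0.0121), a scale on which the median of all genes shifted by 0.17 and 0.24. Ccl12 had a log2 fold change of -0.58 (SE 0.32, 95% interval -1.27 to 0.11, adjusted p = 0.259). For Ccl6 (0.07, SE 0.22), Ccl9 (-0.07, SE 0.23), Cx3cr1 (-0.24, SE 0.31), Ccr1 (-0.12, SE 0.15), Ccl7 (-0.08, SE 0.38) and Ccl2 (0.20, SE 0.39), the 95% interval of the log2 fold change included 0.

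**Figure D4:**
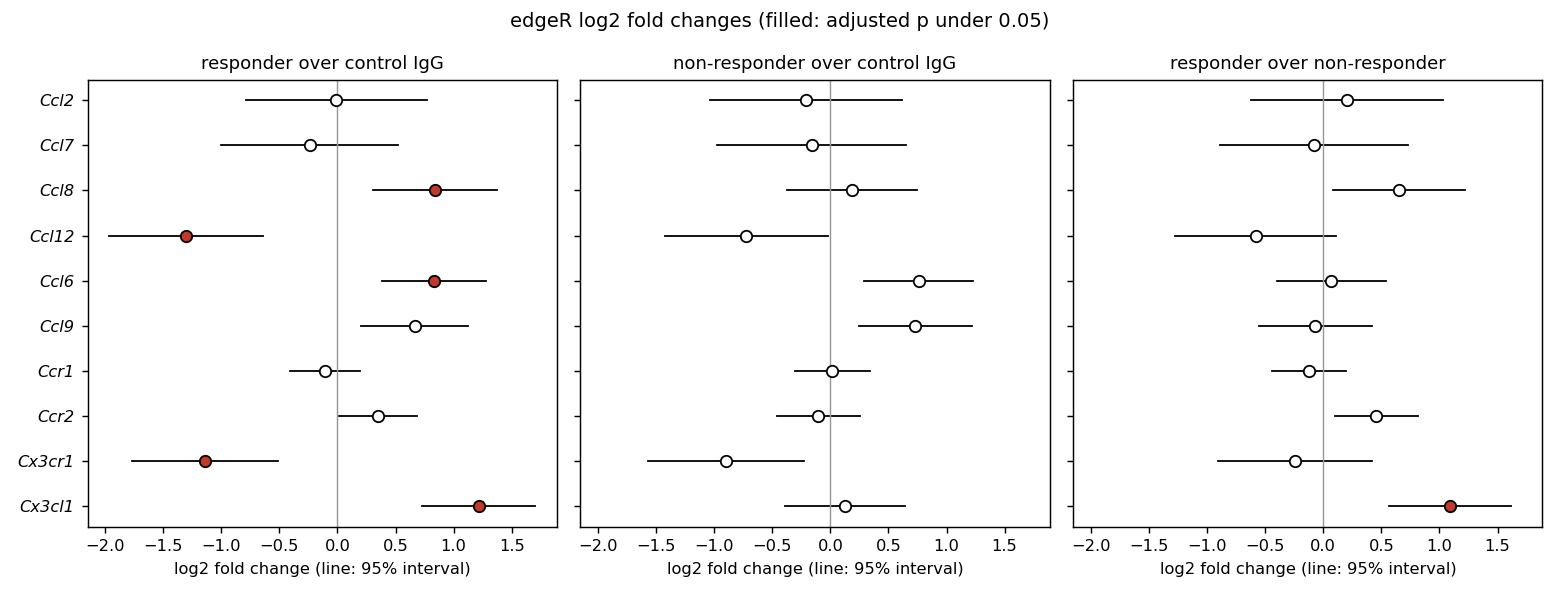
edgeR log2 fold changes (horizontal axis, with the 95% interval as a line) of the 10 genes in the 3 comparisons, with filled circles for an adjusted p under 0.05. Cx3cl1 is filled in both comparisons of the responders, at 1.22 over control IgG and 1.09 over non-responders, and no circle is filled for non-responders over control IgG.

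Between non-responders and control IgG no member passed the test, and neither did any gene (0.0% of 16287), while 758 genes (4.65%) had an unadjusted p under 0.05 and DESeq2 called 18. In this comparison Ccl6 had a log2 fold change of 0.76 (SE 0.22, unadjusted p = 0.00347), Ccl9 of 0.73 (SE 0.23, unadjusted p = 0.00596), Cx3cr1 of -0.90 (SE 0.31, unadjusted p = 0.0123) and Ccl12 of -0.72 (SE 0.33, unadjusted p = 0.0442), each with an adjusted p of 0.931. Side by side, the values of responders and non-responders over control IgG were 0.83 and 0.76 for Ccl6, 0.66 and 0.73 for Ccl9, -1.14 and -0.90 for Cx3cr1, -1.30 and -0.72 for Ccl12, 0.84 and 0.19 for Ccl8, and 1.22 and 0.12 for Cx3cl1. Both sets of values rest on the same control IgG tumors. The difference between the treated groups was tested directly in the comparison of responders with non-responders, where Cx3cl1 passed. In CPM no member's groups were without overlap in non-responders against control IgG, and 1.25% of all genes had none.

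By level per length, Ccl8 was the highest member in every group, at 569 ± 172 TPM (SD, n = 5) in control IgG tumors, 1132 ± 310 (n = 5) in responders and 608 ± 150 (n = 4) in non-responders. Ccl12 was next in control IgG tumors (276.5 ± 102 TPM), with Ccl2 (249.6 ± 123) and Ccl6 (248.5 ± 52) beside it, and these neighbors in the order overlapped. In responders Ccl12 (125 ± 19 TPM) came after Ccl6 (496 ± 108), Ccl2 (277 ± 76) and Ccl9 (241.5 ± 60), and in non-responders (156 ± 69) it came after the same genes. The receptors were scarcer than the 6 CC ligands in every group. Ccr1 was at 32.2 ± 3.6, 32.9 ± 5.2 and 29.7 ± 2.4 TPM in control IgG tumors, responders and non-responders, and Ccr2 at 18.5 ± 3.7, 26.7 ± 4.1 and 16.0 ± 2.3. Cx3cr1 was at 7.83 ± 2.6, 3.86 ± 1.6 and 3.89 ± 1.6 TPM, and Cx3cl1 at 0.81 ± 0.36, 1.504 ± 0.51 and 0.59 ± 0.19.

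Across the 14 tumors 4 of the 10 members had another member as the gene most like them. Ccl2 and Ccl7 had a Pearson correlation of log2 CPM of 0.96 (0.97 after the group means were subtracted), and Ccl6 and Ccl9 of 0.96 (0.94). Ccl8 and Ccl12 had a correlation of -0.16 over all tumors and of 0.66 after the group means were subtracted. The latter is 1 value pooled over the groups and need not hold in each of them. Among responders, 24L was highest in Ccl8 (315 CPM) with Ccl12 at 23.5 CPM. Responder 35L was highest in Ccl12 (33.1 CPM) with Ccl8 at 204.5 CPM. The gene most like Ccl8 was Fas (0.92), followed by Saa3 and Ms4a4b, that most like Ccl12 was Plau (0.95), the urokinase gene, and that most like Cx3cl1 was P2ry14 (0.96). For Ccl6, Folr2 (0.95) and Wfdc17 (0.95) followed Ccl9, and for Ccr2 the nearest was Xcl1 (0.94), followed by Tnf. Ccr1 was most like Lipo3 (0.93) and Cx3cr1 most like Srd5a1 (0.89). These correlations are descriptions over tumors that share treatment, mice and library preparation.

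The 3 mice with tumors on both flanks gave a view of how far the members vary within a host. In mouse 14, Ccl2 was 2.19-fold, Ccl7 2.08-fold and Ccl12 2.03-fold higher in the right tumor than in the left, whereas Ccl8 was 1.21-fold higher, and 7 of the 10 members were higher on the right. In mouse 33, 8 of 10 were higher on the right, and in mouse 30, 2 of 10. The 2 tumors of a mouse were closer to each other than the median of the other pairs of the group for 3 members in mouse 14, 7 in mouse 30 and 6 in mouse 33. Tumors 14R and 33R, which were high in the MCP ligands, also had the highest summed TPM of the skeletal muscle marker list in their groups (1086 against a control median of 194, and 587 against a non-responder median of 162), and the part of that tissue in these values was not tested.

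Marker lists of cells that make or carry these molecules were read beside the members. Their sums are in TPM, a scale that itself shifted toward responders. On log2 TPM with a pseudocount of 1, the median of all genes was 0.085 over control IgG and 0.169 over non-responders. The summed TPM of 6 housekeeping genes had a median of 11520 in responders, 10260 in control IgG tumors and 9708 in non-responders. The 10 inflammatory monocyte markers, Ccr2 among them, summed to 426 to 706 TPM in control IgG tumors, 998.5 to 1385 in the responders and 586 to 707 in non-responders, and in responders over control IgG 5 of the 10 were higher and none lower. They included Ly6c2 (log2 fold change 1.69, SE 0.35, adjusted p = 0.00665), Plac8 (1.01, SE 0.20, adjusted p = 0.00485) and Vcan (1.09, SE 0.24, adjusted p = 0.00974). The 10 macrophage markers summed to 2882 to 3241 TPM in control IgG tumors, 3327 to 4428 in the responders and 2284 to 3143 in non-responders, with 1 of 10 higher, Adgre1 (0.36, SE 0.10, adjusted p = 0.0278). Of the 8 patrolling monocyte markers, 3 were higher in responders than in control IgG tumors and none lower, while Cx3cr1 was lower. They were Treml4 (log2 fold change 1.87), Itgal (1.12) and Pou2f2 (0.52), of which the latter 2 are also expressed by lymphocytes. The part of these cells in the members' differences was not tested.

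Of the 6 T cell markers, 5 were higher in responders than in control IgG tumors, and of the 4 NK cell markers, 4 were. The 6 T cell markers summed to 13.01 to 30.6 TPM in control IgG tumors, 28.1 to 60.8 in the responders and 11.3 to 18.7 in non-responders. For NK cells the ranges were 6.57 to 8.31, 13.2 to 24.1 and 8.37 to 11.2 TPM. The 6 endothelial markers, of cells that can express Cx3cl1, summed to 43.3 to 70.9 TPM in control IgG tumors, 76.2 to 101.5 in the responders and 36.8 to 74.5 in non-responders. This sum did not overlap between responders and the other groups, but 1 of the 6 genes was called higher than in control IgG and 0 of 6 higher than in non-responders. The part of these cells in the level of Cx3cl1 was not tested. Responder 24L, the highest in Ccl8 and Cx3cl1, was also the highest responder in the summed inflammatory monocyte, macrophage, dendritic cell, T cell and NK cell markers. It was the highest responder in the summed B cell and fibroblast markers as well.

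**Figure D5:**
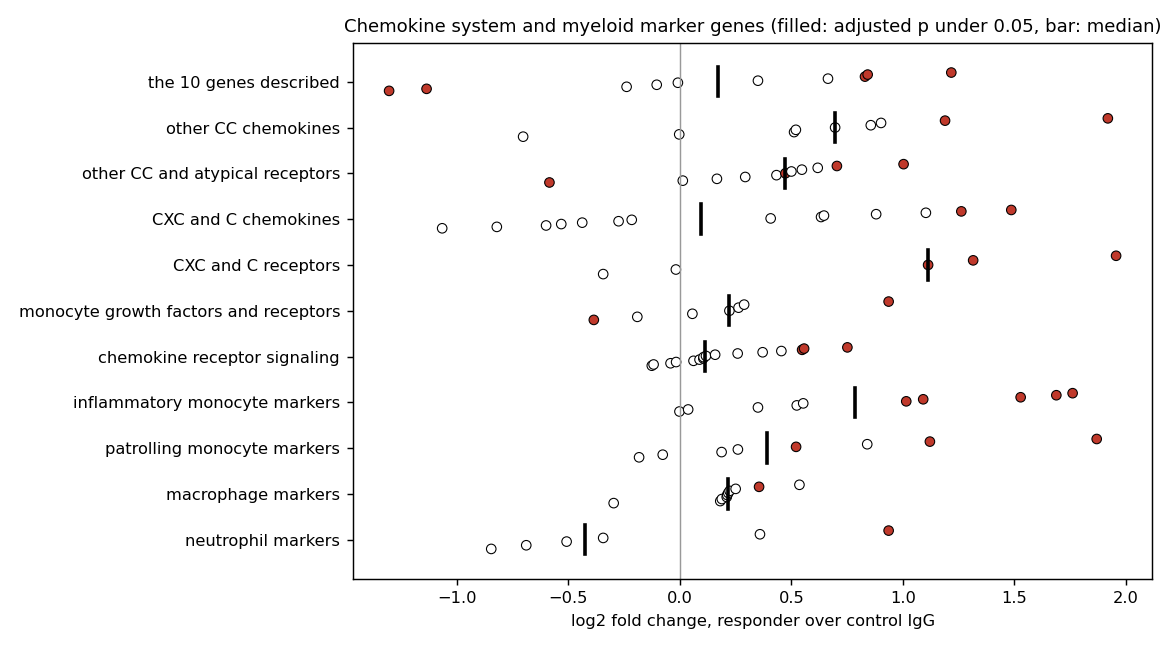
log2 fold change of responders over control IgG (horizontal axis) for each tested gene of the member list, of other chemokine system lists and of myeloid marker lists (rows), with filled points for an adjusted p under 0.05 and a bar at the median. The members' median is 0.17, with called genes on both sides of 0, and of the inflammatory monocyte markers the 5 called genes are all higher.

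The rest of the chemokine system was read from lists of its genes. Of the other CC chemokines, 9 of 13 could be tested, and 2 were higher in responders than in control IgG tumors, Ccl5 and Ccl17, with a list median log2 fold change of 0.70 against 0.17 for the members and -0.01 for all genes tested. Among the other CC and atypical receptors, Ccr7 and Ccr9 were higher and the scavenger receptor Ackr3 was lower (log2 fold change -0.58, SE 0.10, adjusted p = 0.00281). Of the 14 CXC and C chemokines tested, Cxcl9 (1.26, SE 0.28, adjusted p = 0.00888) and Cxcl11 (1.49, SE 0.40, adjusted p = 0.0261), the interferon-gamma induced ligands of Cxcr3, were higher. Their receptor Cxcr3 was higher too (1.31, SE 0.21, adjusted p = 0.00194), with Cxcr6 and Xcr1, so that 3 of the 5 CXC and C receptors tested passed. Among 7 monocyte growth factors and receptors, Csf1, the growth factor of macrophages, was lower (-0.39, SE 0.10, adjusted p = 0.0191) and Csf3r was higher (0.94, SE 0.17, adjusted p = 0.00305). Among 16 genes of signaling downstream of chemokine receptors, 3 were higher and none lower, Dock2 (0.75, SE 0.14, adjusted p = 0.00368), Rac2 and Arrb1.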

How the data were processed

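Bulk RNA-seq of 14 tumors was used. Per the labels, reads were aligned with STAR and quantified with RSEM on mm10 (settings are described for the cell lines, to which the tumor methods point), and the annotation release is not given in the sources used here. The authors deposited expected counts, RSEM's estimated fragments per gene, not normalized, with fragments of several genes divided among them. They also deposited TPM values, scaled by effective length and to the same total per tumor. The deposited FPKM values and effective length columns gave no level here (the latter gave the fragment length). Group and tumor names came from the labels, and mice from the tumor numbers.

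Counts were rounded and all 14 tumors were fitted without covariates (edgeR 4.0.16 in R 4.3.3, TMM, filterByExpr, quasi-likelihood test), which left 16287 genes for the Benjamini-Hochberg adjustment. Each tumor counted as a replicate, and p-values measure the spread between these tumors, some of which share a mouse. Log2 CPM used a prior count of 2. Totals were 33237744 to 48481461, and 3 counts was the floor. Intervals of fold changes are at 95%. On simulated counts of 16086 genes for responders over non-responders, with 200 changed, edgeR recovered 89.5%, with 3.76% of its calls false. Recovery at the fold changes and spread of the members was not tested. Gene names and positions came from the mm10 annotation (53620 of 53801 matched) and promoters from RefSeq.

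Alternatives were DESeq2 1.42.0, limma-voom (limma 3.58.1) alone or with a random effect of mouse, 1 tumor per mouse, DESeq2's size factors, no filter, the compared groups alone, log2 TPM with pseudocounts of 1 and 0.1, an offset for gene length (loess, span 0.5), each tumor left out, and, chosen after seeing the data, 14R, 24L and 33R left out together. For 1 tumor per mouse, the left tumor was kept where both flanks gave one. The members and lists were chosen with earlier results of these data known. The genes named are the members, those of the lists, and the 3 most correlated with each member, and some of them are not reported here.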

Additional observations from a re-analysis of the deposited data

Results flagged for a closer look

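Of 30 combinations of a member and a group, 5 had a highest tumor whose distance to the nearest other tumor was a large part of the range of the group (Dixon's test at 95%), where chance flags about 1 in 20. Control IgG tumor 14R stood apart for Ccl2 (234.0 CPM), Ccl7 (94.9 CPM) and Ccl12 (112.4 CPM). These genes had correlations of 0.84 to 0.97 with each other after group means were subtracted. The 30 combinations are therefore not independent, and 5 flags cannot be read as an excess over that rate. Responder 24L stood apart for Ccl8 (315.3 CPM), and non-responder 33R for Ccr1 (95.2 CPM). Without 14R, Ccl12 remained lower in responders than in control IgG tumors, and without 24L the call of Ccl8 was lost (adjusted p = 0.116).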

How the results depend on the processing

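The number of genes called in responders over non-responders, 1612, was 2634 with DESeq2, 2973 with mouse as a random effect, 520 with 1 tumor per mouse, 689 with the 2 groups alone and 470 without 14R, 24L and 33R. In non-responders over control IgG it was 18 with DESeq2 and 3 without a filter. The fit with mouse as a random effect used a within-mouse correlation of -0.282, estimated from mice 14, 30 and 33. A negative value does not widen the error, so the count of that fit cannot show whether calls hold when tumors share a mouse. Members called in responders over non-responders numbered 3 on either TPM scale, 2 under the length offset and 0 without these 3 tumors. On leaving out each tumor in turn, all genes called ranged from 569 to 1978 in responders over non-responders, from 1190 to 3385 in responders over control IgG and from 0 to 5 in non-responders over control IgG, and members called from 0 to 1, from 2 to 6 and from 0 to 0. The tumors whose omission moved the first by over 1.5 times were 24L, 30R, 32R and 33R, and the second 20R, 24L, 30R and 33R. In these and the following cases the cause was not tested, beyond the smaller number of tumors where some were left out.

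Shares of the MCP ligands in summed CPM, which is not per length, were 32.9%, 29.6% and 31.0% for Ccl2, 14.0%, 10.7% and 13.2% for Ccl7 and 34.7%, 53.0% and 44.0% for Ccl8 in control IgG tumors, responders and non-responders, and 18.3% for Ccl12 in control IgG tumors. The order of the groups was as in TPM.

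Values that changed sign were all of members that were not called. In responders over non-responders, Ccl7 was 0.13 with limma-voom, 0.016 with mouse as a random effect, 0.53 with 1 tumor per mouse, 0.35 and 0.36 on TPM with pseudocounts of 1 and 0.1, 0.19 under the length offset and 0.37 without the 3 tumors. Ccl9 was 0.26 with 1 tumor per mouse, 0.29 and 0.29 on TPM, 0.049 under the length offset and 0.28 without the 3 tumors. Ccr1 was 0.098 with 1 tumor per mouse, 0.13 and 0.14 on TPM and 0.084 without the 3 tumors. In responders over control IgG, Ccl2 was 0.084 with limma-voom, 0.018 with mouse as a random effect, 0.45 with 1 tumor per mouse, 0.22 and 0.22 on TPM, 0.12 under the length offset and 0.28 without the 3 tumors. Ccl7 was 0.18 with 1 tumor per mouse and 0.025 without the 3 tumors, and Ccr1 was 0.039 and 0.025 there, and 0.026 and 0.026 on TPM. In non-responders over control IgG, Ccr1 was -0.059 with 1 tumor per mouse, -0.11 and -0.11 on TPM and -0.059 without the 3 tumors, and Cx3cl1 was -0.17 and -0.34 on TPM.

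On leaving out each tumor, the ranges of those that changed sign were, in responders over non-responders, -0.024 to 0.69 (Ccl2), -0.32 to 0.48 (Ccl7), -0.027 to 0.29 (Ccl6), -0.20 to 0.24 (Ccl9) and -0.24 to 0.051 (Ccr1). In responders over control IgG they were -0.15 to 0.39 (Ccl2) and -0.36 to 0.13 (Ccl7). In non-responders over control IgG they were -0.70 to 0.17 (Ccl2), -0.72 to 0.19 (Ccl7), -0.085 to 0.36 (Ccl8), -0.15 to 0.10 (Ccr1), -0.20 to 0.012 (Ccr2) and -0.048 to 0.25 (Cx3cl1). The call of Cx3cr1 in responders over control IgG was lost on TPM with a pseudocount of 0.1 (adjusted p = 0.0511) and without the 3 tumors (0.0643), and that of Cx3cl1 in responders over non-responders without the 3 tumors (0.0549).

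Of 330 values of a member under an alternative, 273 kept their direction and their side of the threshold. No paired analysis was possible because the groups share no tumor number. Cx3cl1, the scarcest member, rests on the fewest counts. The limits are the 3 to 4 mice per group, the size threshold that defines the groups, and bulk tissue.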
